A study of Mus musculus with 18 samples.

Results

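The genes described here are 36 genes of the endoplasmic reticulum (ER) that fold secreted proteins, clear misfolded ones or sense their load. They were taken by symbol from a fixed list, and all 36 have a row among the 24421 genes of each of 3 deposited RNA-seq tables. The 18 libraries were labelled as mouse esophageal organoids, cultures grown from dissociated tissue in a gel. Every group was labelled Trp53-/-, Myc overexpressing (Myc OE) and carrying a guide against Cdkn2a (sgCdkn2a). The premalignant organoids carried in addition a guide against Tgfbr2 (sgTgfbr2, n = 4) or a control guide (sgScr, n = 3). The product of Tgfbr2 is the receptor subunit that binds TGF-beta. The tumor organoids carried sgTgfbr2 (n = 2) or sgScr (n = 3). The remaining libraries are from tumor organoids with sgTgfbr2 that received, after 72 h of culture, either the calcium channel blocker pinaverium bromide (PB, 2 µM, n = 3) or DMSO as its vehicle (n = 3). How long the exposure lasted is not given in the sources used here. For all groups the medium was listed with 2 µM A83-01, which blocks the kinase of the partner receptor subunit. The titles number the premalignant sgTgfbr2 libraries 1 and 2, with 2 libraries each, and the labels do not say whether the number marks a guide, a clone or a culture. They also do not say whether replicates were separate cultures, so a p-value here covers the scatter among libraries of a group, and that scatter can be technical.

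Secreted and membrane proteins enter the ER through the Sec61 channel and are folded there by chaperones and disulfide isomerases, while proteins that fail to fold are sent back to the cytosol for degradation. When unfolded proteins accumulate, the chaperone BiP (Hspa5) leaves the sensors PERK (Eif2ak3), IRE1 (Ern1) and ATF6 (Atf6), and the unfolded protein response follows. PERK slows protein synthesis, IRE1 splices the mRNA of the transcription factor Xbp1, and ATF6 is cut in the Golgi to release a transcription factor. Released ATF6 and spliced XBP1 raise chaperone genes through the ER stress response element (ERSE) in their promoters. The sensors are controlled mainly as proteins, and counts per gene do not separate the spliced Xbp1 mRNA from the unspliced one, so the values below are mRNA levels and not sensor activity.

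Levels are given as CPM, the counts of a gene scaled to the library total. Libraries held 14993749 to 21784140 counts, at which 3 counts stand for 0.138 to 0.200 CPM. Log2 fold changes and adjusted p-values are those of edgeR, fitted over all genes of a table after TMM scaling, with genes called at an adjusted p under 0.05, and the value after ± is their standard error (SE). With library totals in place of TMM, the median log2 fold change of all genes shifts by -0.14 in the PB comparison, by 0.29 in the tumor comparison and by 0.23 in the stage contrast, so a small change can have one sign in CPM and the other after scaling. Groups without overlap in CPM were common among all genes tested. All PB libraries lay above all vehicle libraries for 26.2% of genes and below them for 48.5%. For sgTgfbr2 against sgScr the shares were 46.4% and 27.9% in tumor and 28.1% and 23.1% in premalignant organoids. Tgfbr2 mRNA averaged 113 CPM in premalignant sgTgfbr2 and 195 CPM in premalignant sgScr libraries, and 69.3 CPM in tumor sgTgfbr2 and 120.3 CPM in tumor sgScr libraries. It averaged 68.3 CPM in PB libraries and 96.8 CPM in vehicle libraries. In libraries from whole cultures, fewer cells of a type and less RNA per cell cannot be told apart. In every group all 9 listed markers of squamous epithelium, the lining of the esophagus, averaged over 1 CPM, and they summed to between 5942 and 128033 CPM. The tumor sgTgfbr2 and tumor sgScr libraries also held markers of other tissues. Vehicle libraries were likewise given as tumor organoids with sgTgfbr2. Their fibroblast markers summed to at most 0.521 CPM, against 2318 and 2367 CPM in tumor sgTgfbr2. All 11 markers of gastric gland averaged over 1 CPM in tumor sgTgfbr2, with sums of 29280 and 32278 CPM, against 0 of 11 and at most 0.973 CPM in tumor sgScr. All 11 markers of skeletal muscle averaged over 1 CPM in tumor sgScr, with sums of 18988 to 19481 CPM, against 1 of 11 and at most 260.3 CPM in tumor sgTgfbr2. The strand setting of the counts is not given in the sources used here, and Hsp90b1, Eif2ak3, Sec61a1 and Ssr2 share 10.3%, 8.05%, 8.16% and 12.8% of their exon bases with a gene on the opposite strand, whose reads cannot then be told apart.

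The element that ATF6 and XBP1 bind is shown first, because it sets several of these genes apart by sequence. RefSeq promoter windows (GRCm38.p6, 250 bases before to 50 after the gene start) were found for 30 of the 36 genes. The windows were searched on both strands for the ERSE, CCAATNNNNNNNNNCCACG, which 9 of the 30 genes held (30%), against 39 of all 32851 windows (0.119%). The ERSE was introduced above as an element of chaperone promoters, so these shares are a description. The matches are lined up here along the strand that carries them, with the fixed letters in capitals.
Hspa5 (chr2:34772017-34772051, + strand): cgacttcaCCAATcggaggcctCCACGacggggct
Hsp90b1 (chr10:86705630-86705664, - strand): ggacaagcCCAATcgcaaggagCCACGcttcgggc
Hsp90b1 (chr10:86705525-86705559, + strand): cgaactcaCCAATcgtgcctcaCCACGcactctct
Calr (chr8:84847067-84847101, + strand): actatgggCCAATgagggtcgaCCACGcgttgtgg
Canx (chr11:50325792-50325826, - strand): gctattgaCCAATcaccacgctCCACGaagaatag
Pdia6 (chr12:17266483-17266517, + strand): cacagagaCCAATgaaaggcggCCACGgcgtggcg
Creld2 (chr15:88819512-88819546, - strand): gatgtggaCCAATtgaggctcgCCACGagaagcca
Derl3 (chr10:75893234-75893268, - strand): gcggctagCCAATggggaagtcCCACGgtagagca
Syvn1 (chr19:6046524-6046558, + strand): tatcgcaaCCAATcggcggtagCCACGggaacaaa
Dnajc3 (chr14:118937819-118937853, + strand): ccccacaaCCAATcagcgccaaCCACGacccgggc
The first base of the match lay 44 to 212 bases before the gene start. Another arrangement of the same boxes, ERSE-II (ATTGGNCCACG), was found in the windows of Herpud1 and Dnajb11 (6.67% of the 30 genes, 0.0365% of all windows). Herpud1 is shown because it was called higher in the PB, premalignant and tumor comparisons alike.
Herpud1 (chr8:94386369-94386395, + strand): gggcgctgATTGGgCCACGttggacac
The 250 bases before the start of Hspa5, the member with the highest PB fold change, place its element 65 bases before the RefSeq start, with its fixed letters in capitals. The GENCODE gene given with its values below begins upstream of that start, so the element lies inside it.
Hspa5 (chr2:34771840-34772089, + strand): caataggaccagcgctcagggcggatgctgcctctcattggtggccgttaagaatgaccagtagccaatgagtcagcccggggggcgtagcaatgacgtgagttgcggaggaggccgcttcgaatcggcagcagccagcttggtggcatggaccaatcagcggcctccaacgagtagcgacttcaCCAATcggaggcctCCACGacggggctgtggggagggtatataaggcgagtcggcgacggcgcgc
The letters TGACGTGG, a core that XBP1 binds, occurred in the window of Sec24d alone (3.33%, against 0.676% of all windows). The letters ATTGCATCA, of the kind that ATF4 binds, occurred in none of the 30, against 0.192% of all windows. No mismatch was allowed in the ATF4-type letters, and the Herpud1 window holds all of them but the first. With 1 mismatch allowed in the ERSE, 14 of the 30 genes matched (46.7%), against 1.5% of all windows. No match of one motif overlapped a match of another. Hyou1, Manf, Derl1, Atf6, Sec61a1 and Ssr2 were not searched.

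Compared per kilobase of exon, the 3 highest members in every group were luminal chaperones or oxidoreductases. In vehicle organoids Hspa5 averaged 200.8 CPM per kb, Hsp90b1 (the ER form of HSP90) 176, Calr (calreticulin, a lectin chaperone) 172, P4hb (protein disulfide isomerase) 168 and Pdia3 (a glycoprotein isomerase) 150.3. The sensors were lower, at 15.8 CPM per kb for Atf6, 9.003 for Ern1 and 5.68 for Eif2ak3. Derl3, a degradation factor of secretory tissues, was the lowest, at 0.366 CPM per kb. Under PB the Hspa5 mean was 935 CPM per kb, the highest of all members in any group, and the next member in PB organoids was Calr at 296.5 CPM per kb. P4hb led in tumor sgScr organoids, with 652 CPM per kb, and also in tumor sgTgfbr2, with 242, and in premalignant sgScr, with 227.

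Most of the chaperone and folding genes were higher in tumor sgTgfbr2 organoids given PB. Of the 36 members, 27 were higher (75%) and 3 were lower, while over all 12801 genes tested 36.5% were called higher and 36.8% lower. The median log2 fold change was 0.50 over the members and -0.01 over all genes. With library totals 9 members were called lower, Pdia5, P4hb, Dnajc3, Dnajc10, Derl2 and Xbp1 in addition, and the share of called genes that were higher was 34.9%, against 49.7% after TMM scaling. Hspa5 rose most, and all 5 luminal chaperones rose. The 36 genes together took 11339 to 11529.5 CPM in PB libraries and 6237 to 6273 CPM in vehicle libraries, as drawn in the plot of summed levels. Without Hspa5 the sums were 7436 to 7504 CPM under PB and 5384 to 5426 CPM under vehicle.

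**Figure D1:**
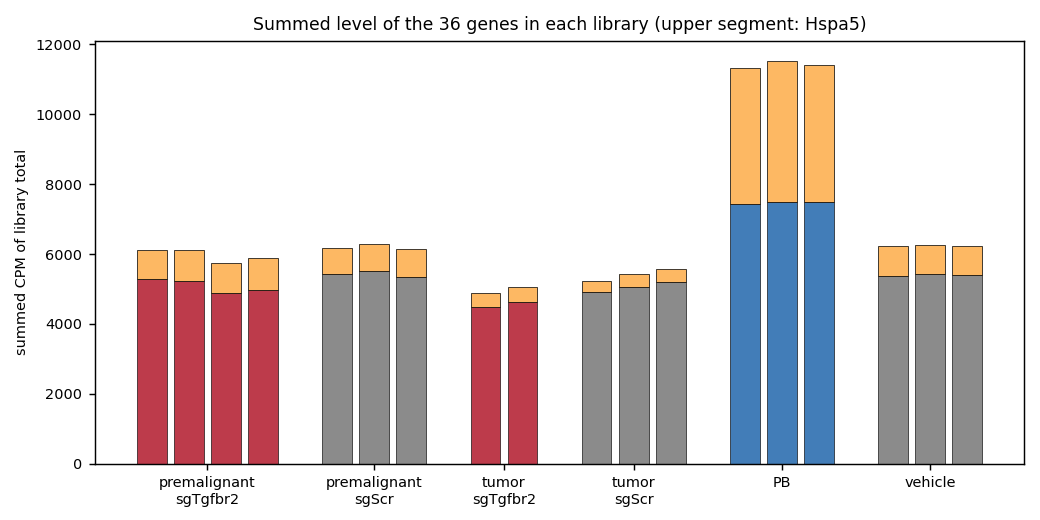
Summed level of the 36 genes in each library, in CPM (vertical axis), with the share of Hspa5 as the upper segment of each bar and 1 bar per library. The 3 PB bars lie between 11339 and 11529.5 CPM, above every other bar, and tumor sgTgfbr2 has the lowest, at 4872 and 5045 CPM.

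Among the luminal chaperones, Hspa5 (chr2:34771970-34777547 in GRCm38, + strand) was at 3903, 4026 and 3933 CPM in PB libraries and at 853, 847 and 847 CPM in vehicle libraries. The groups were far apart, and the log2 fold change was 2.36 ± 0.02 (SE, edgeR adjusted p = 4.6e-72). Calr rose by 0.93 ± 0.02 on the log2 scale, Hyou1 (an exchange factor of BiP) by 0.86 ± 0.03, Hsp90b1 by 0.80 ± 0.02 and Canx (calnexin, the membrane-bound lectin chaperone) by 0.43 ± 0.02. Of the 5 oxidoreductases, which form and rearrange disulfide bonds, 4 were called higher, where 36.5% of all genes were. Pdia6 rose by 0.79 ± 0.03, Pdia4 by 0.69 ± 0.03 and Pdia3 by 0.32 ± 0.02. P4hb was called higher after TMM scaling by 0.06 ± 0.02, but its CPM were lower under PB and it was called lower with library totals, at -0.08. Pdia5 was not called, at -0.07 ± 0.09.

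The J proteins and cofactors that serve BiP split in the same comparison. Manf, a secreted cofactor of BiP, rose by 1.20 ± 0.03 on the log2 scale, Creld2, a secreted factor of the stress response, by 1.07 ± 0.05, Sdf2l1, a partner of Dnajb11, by 0.98 ± 0.07, Dnajb9, a J protein that represses IRE1, by 0.96 ± 0.06 and Dnajb11, a J protein for substrate delivery, by 0.47 ± 0.04. Dnajc3, another luminal J protein, was at 0.00 ± 0.04 and the reductase Dnajc10 at 0.02 ± 0.04, and neither was called after TMM scaling. Both were called lower with library totals, at -0.14 and -0.12.

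Of the 9 genes of ER-associated degradation, 6 rose and 1 fell, where 36.5% of all genes were called higher and 36.8% lower. Herpud1 (chr8:94386438-94395377 in GRCm38, + strand), a membrane scaffold of the degradation complex, was at 262, 255 and 269.8 CPM in PB libraries and at 114, 124 and 113 CPM in vehicle libraries. Its groups did not overlap, with a log2 fold change of 1.30 ± 0.03 (edgeR adjusted p = 7.88e-47). Derl3 was at 2.00, 1.78 and 2.12 CPM under PB and at 0.788, 0.716 and 0.687 CPM under vehicle, from 27 to 33 counts and from 11 to 13 counts. These were the lowest counts of any member, and the log2 fold change was 1.56 ± 0.31 (edgeR adjusted p = 6.99e-06). Sel1l, the adaptor of the ubiquitin ligase, rose by 0.76 ± 0.03, the channel component Derl1 by 0.54 ± 0.03 and the ligase Syvn1 by 0.35 ± 0.05. The lectin Os9 was called higher at 0.13 ± 0.04 and lost that call with library totals, at -0.01. Edem2, a mannosidase of the same pathway, was at 54.0, 54.2 and 50.6 CPM under PB, against 64.5, 63.7 and 67.5 CPM under vehicle. It fell by 0.16 ± 0.05 on the log2 scale (edgeR adjusted p = 0.00152), and Edem1 (0.06 ± 0.05) and Derl2 (-0.03 ± 0.05) were not called.

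The sensor genes moved in different directions under PB. In GRCm38, Atf6 lies at chr1:170704674-170867771 and Ern1 at chr11:106394650-106487852, both on the - strand, and Eif2ak3 at chr6:70844515-70905245 and Xbp1 at chr11:5520659-5525893, both on the + strand. Atf6 was at 355, 369 and 361 CPM in PB libraries and at 145, 150.3 and 144 CPM in vehicle libraries, and Ern1 at 166, 158 and 159.7 CPM in PB libraries and at 70.7, 72.1 and 77.9 CPM in vehicle libraries. All PB libraries lay above all vehicle libraries for both genes. The log2 fold changes were 1.45 ± 0.03 for Atf6 (edgeR adjusted p = 2.69e-52) and 1.27 ± 0.04 for Ern1 (edgeR adjusted p = 4.27e-42). Eif2ak3 was at 25.9, 22.8 and 26.8 CPM under PB, against 34.8, 32.6 and 35.2 CPM under vehicle. Every PB library lay below every vehicle library, and the log2 fold change was -0.30 ± 0.07 (edgeR adjusted p = 5.29e-05). Xbp1 was at 83.5, 91.2 and 88.9 CPM under PB and at 96.9, 100.4 and 95.8 CPM under vehicle. It was not called after TMM scaling (-0.01 ± 0.04, edgeR adjusted p = 0.759) and was called lower with library totals, at -0.15 (edgeR adjusted p = 0.000326; range over its alternatives 0.000326 to 0.922). Atf6b, the paralog of Atf6, rose by 0.37 ± 0.04.

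At the entry and exit of the ER, 4 of 5 genes rose under PB, where 36.5% of all genes were called higher. Sec24d, a cargo-binding subunit of the COPII coat, rose by 0.60 ± 0.05 on the log2 scale, the channel subunit Sec61a1 by 0.54 ± 0.03, and the translocon-associated Ssr2 and Ssr1 by 0.45 ± 0.03 and 0.25 ± 0.03. Sec61b, the small beta subunit of the same channel, was at 51.3, 45.9 and 48.8 CPM under PB and at 61.1, 57.7 and 64.5 CPM under vehicle. The groups did not overlap, and it fell by 0.19 ± 0.05 (edgeR adjusted p = 0.000558).

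**Figure D2:**
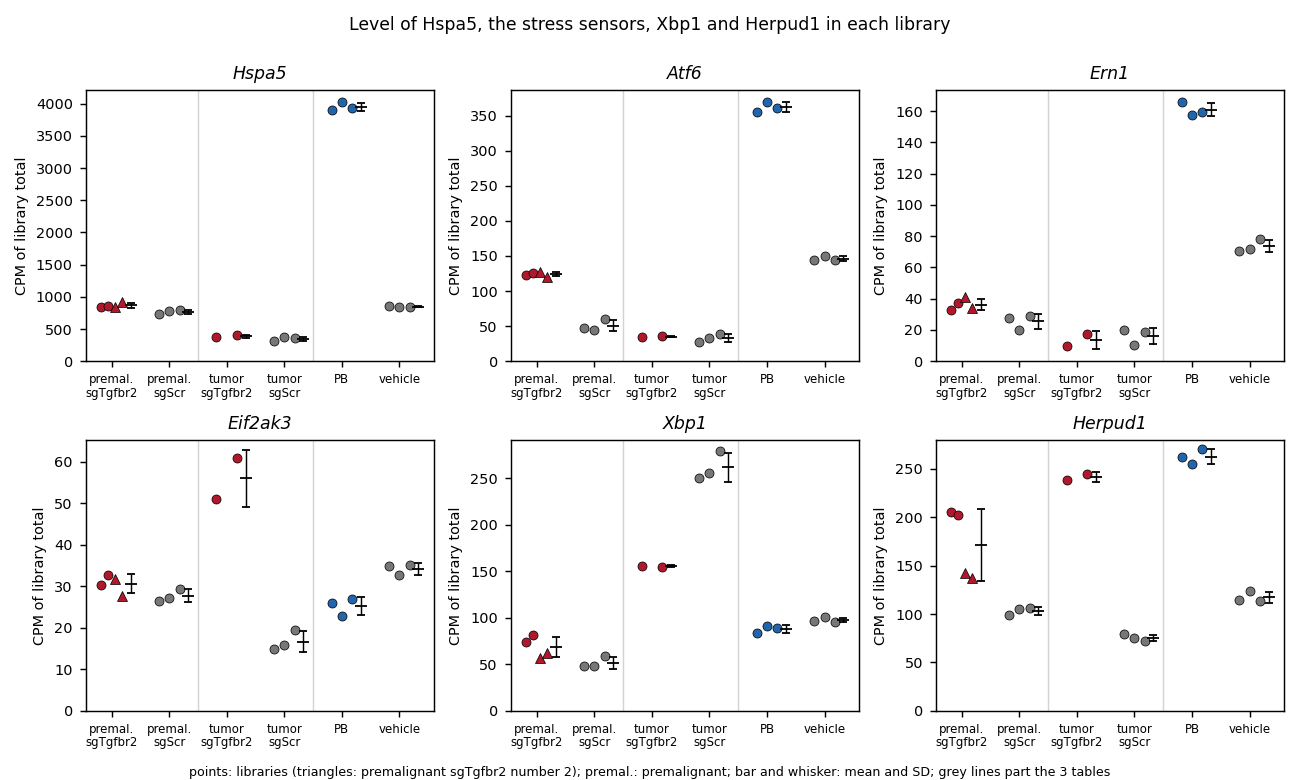
Level of Hspa5, the sensor genes Atf6, Ern1 and Eif2ak3, and of Xbp1 and Herpud1 in CPM (vertical axes, from 0), with 1 point per library, triangles for premalignant sgTgfbr2 number 2, and bars for the mean and SD of each group. Hspa5 lies between 3903 and 4026 CPM in PB libraries and at most at 925 CPM in all other libraries, while Eif2ak3 is highest in tumor sgTgfbr2, at 51.1 and 60.8 CPM.

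Set beside the promoter windows, 21 of the 30 genes with a window rose under PB, where 36.5% of all genes were called higher. Of the 9 genes with an ERSE 8 rose, and Dnajc3 was the exception. Most of the 21 without one rose too. The median log2 fold change under PB was 0.80 over the 9 genes with an ERSE (0.00 to 2.36) and 0.25 over the 21 without one (-0.30 to 1.30). The ranges overlap, as the plot by promoter element shows. Herpud1, Ern1, Sdf2l1 and Dnajb9 rose by 0.96 or more without the ERSE in their windows. Herpud1 and Dnajb11, counted among the 21, held the ERSE-II. The split rests on exact matches, and with 1 mismatch allowed 14 of the 30 genes held an ERSE. Hspa5, with the first element shown above, had the highest value, and Canx and Syvn1, with the same fixed letters, had 0.43 and 0.35. The PB fold changes were known when these motifs were chosen, so the counts are a description.

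**Figure D3:**
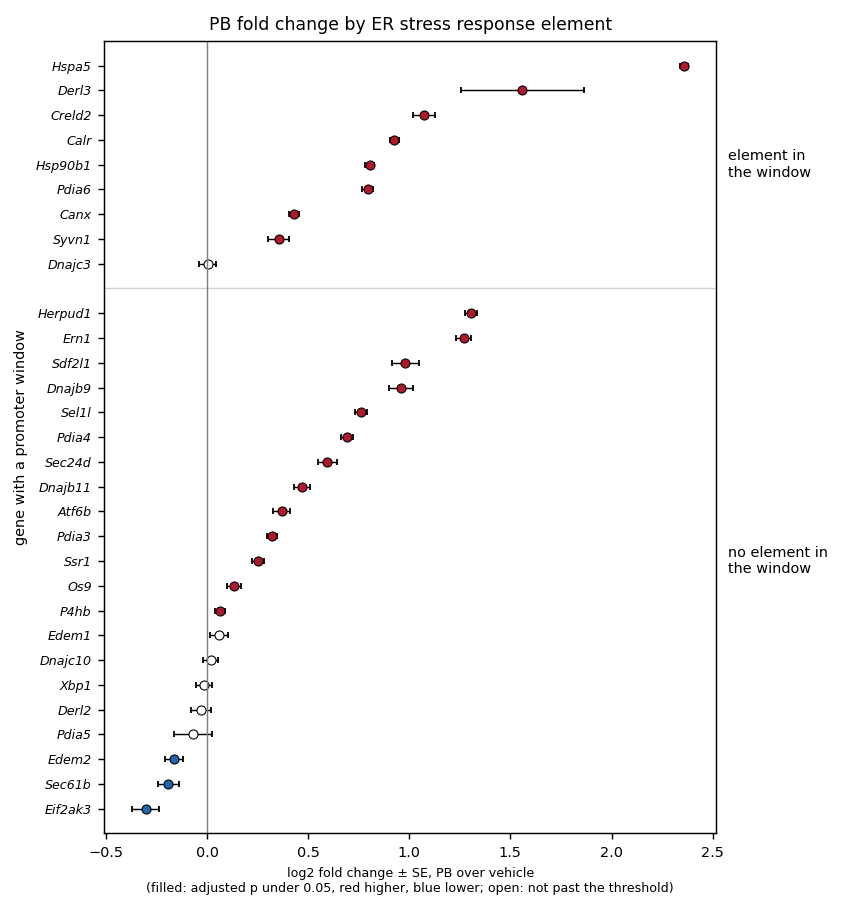
Log2 fold change under PB over vehicle with its standard error (horizontal axis) for the 30 genes with a promoter window, parted by whether the window holds an ERSE. The 9 genes with the element range from 0.00 (Dnajc3) to 2.36 (Hspa5), and the 21 without it from -0.30 (Eif2ak3) to 1.30 (Herpud1). Herpud1 and Dnajb11, among the 21, held the ERSE-II.

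Further ER genes were taken from lists beside the members. Their counts under PB stand against 36.5% of all genes called higher and 36.8% called lower. Counts and medians of these lists are after TMM scaling. With library totals the median log2 fold change of all genes shifts by -0.14. Of 14 genes listed as outputs of the PERK branch 9 were higher under PB and 1 was lower, with a median log2 fold change of 0.49. PERK activity was not measured, so their rise is not assigned to PERK. Ddit3, the stress transcription factor CHOP, averaged 428 CPM under PB and 48.9 CPM under vehicle (log2 fold change 3.27 ± 0.03), and Asns, an amino acid synthesis gene, rose by 1.12 ± 0.02. Atf3, a stress-induced transcription factor on the same list, averaged 111 CPM under PB and 333 CPM under vehicle, a log2 fold change of -1.45 ± 0.03. Among 17 further degradation genes tested, 12 were higher and 4 lower (median 0.37), with the ubiquitin-conjugating enzyme Ube2g2 at 1.33 ± 0.04 and the membrane factor Faf2 at -0.58 ± 0.04. The oligosaccharyltransferase, which adds glycans, had 8 higher and 3 lower of 12 (median 0.24), led by Krtcap2 at 0.87 ± 0.04. The translocon, signal peptidase and signal recognition particle had 13 higher and 2 lower of 20 (median 0.18), with Srp72 at 0.41 ± 0.03. The COPII coat and its cargo receptors had 13 higher and 3 lower of 19 (median 0.18), with Mcfd2 at 0.53 ± 0.04 and Sec31a at 0.44 ± 0.03.

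Folding enzymes outside the member list were mixed, with 17 higher and 10 lower of 36 tested and a median of 0.10. Over all genes 36.5% were called higher under PB and 36.8% lower. The oxidase Ero1l, which recharges protein disulfide isomerase, averaged 764 CPM under PB and 1281 CPM under vehicle and fell by 0.61 ± 0.02 on the log2 scale, while Tmx4 rose by 0.68 ± 0.04 and Prkcsh by 0.41 ± 0.03. Of 12 regulators of the sensors 5 were higher and 2 lower, led by the deubiquitinase Yod1 at 1.68 ± 0.06. Of 4 tested genes of secretory cells none was higher and 2 were lower, Creb3l4 at -0.83 ± 0.26 and Bhlha15 at -1.23 ± 0.44, both at most 2.89 CPM on average. The markers of squamous epithelium summed to 8825 to 8915 CPM under PB and 10523 to 10688 CPM under vehicle, so their sum was lower under PB. Of the 9 markers, 6 averaged lower under PB, with Krt5 at 4680 CPM under PB and 5496 CPM under vehicle, while Sox2, Dsg3 and Col17a1 averaged higher, with Col17a1 at 1216 CPM under PB and 1052 CPM under vehicle. Of 7 plasma and B cell genes only Sdc1, a syndecan that epithelia express as well, averaged over 1 CPM, at 1053 CPM under PB and 1190.4 CPM under vehicle. Gastric gland genes summed to 1.09 to 1.72 CPM under PB and 2.91 to 4.50 CPM under vehicle, muscle genes to 5.14 to 6.05 CPM under PB and 8.30 to 8.48 CPM under vehicle, and pancreatic genes to at most 0.0667 CPM under PB and 1.25 CPM under vehicle. Immune markers summed to 39.6 to 46.6 CPM under PB and 39.1 to 44.1 CPM under vehicle, and fibroblast and endothelial markers stayed under 1 CPM in each group. The part of these shifts in the changes above was not tested.

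In premalignant organoids the Tgfbr2 guide went with lower levels of many members and higher levels of few. Of the 36 members, 3 were higher (8.33%) and 14 lower (38.9%), while over all 13098 genes tested 22.7% were called higher and 23.5% lower. With 1 mean for each number 5 members were called higher, and 8122 genes were called in all, against 6057 without it. The median log2 fold change was -0.15 over the members and -0.00 over all genes. The 3 that rose were Atf6, Herpud1 and Ern1. The lower group held 4 of 7 J proteins and cofactors, 3 of 5 translocon or COPII genes, 3 of 9 degradation genes, 2 of 5 oxidoreductases, 1 of 5 luminal chaperones and Atf6b.

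Atf6 was at 123, 125, 127 and 121 CPM in premalignant sgTgfbr2 libraries and at 47.8, 44.3 and 59.7 CPM in sgScr libraries. The groups were far apart, and it rose by 1.23 ± 0.10 on the log2 scale (edgeR adjusted p = 7.3e-05). Atf6b went the other way, with 53.1, 45.2, 38.2 and 37.6 CPM in sgTgfbr2 and 92.6, 84.5 and 70.8 CPM in sgScr. It fell by 1.00 ± 0.14 (edgeR adjusted p = 0.000767). Ern1 was at 32.7, 37.0, 41.2 and 34.3 CPM in sgTgfbr2, against 27.8, 20.2 and 28.7 CPM in sgScr, with no overlap, and its log2 fold change was 0.44 ± 0.13 (edgeR adjusted p = 0.023). That call was lost without sgScr replicate 2 (0.31, edgeR adjusted p = 0.0878) and without replicate 1 of number 2 (0.38, edgeR adjusted p = 0.0518), and the adjusted p ranged from 0.00413 to 0.0878 over its alternatives. Eif2ak3 was at 27.7 to 32.8 CPM in sgTgfbr2 and at 26.5 to 29.5 CPM in sgScr and was not called (0.08 ± 0.09).

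Xbp1 was at 73.6, 81.6, 57.1 and 62.3 CPM in sgTgfbr2 and at 48.2, 47.7 and 59.4 CPM in sgScr. The groups overlapped, and the log2 fold change of 0.34 ± 0.13 missed the threshold (edgeR adjusted p = 0.062). It passed with library totals, with DESeq2, without replicate 1 of number 2 and with 1 mean for each number, and its adjusted p ranged from 0.00557 to 0.203. Hspa5 was at 844, 862, 848 and 925 CPM in sgTgfbr2 and at 734, 778 and 793 CPM in sgScr. The groups did not overlap in CPM, but the log2 fold change of 0.11 ± 0.08 was not called (edgeR adjusted p = 0.296).

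Herpud1 was at 205, 202, 142 and 137 CPM in premalignant sgTgfbr2 and at 98.7, 105 and 106 CPM in sgScr. All sgTgfbr2 libraries were higher, and it rose by 0.66 ± 0.15 on the log2 scale (edgeR adjusted p = 0.00734). With the replicate number as a block Herpud1 was not called (0.66, edgeR adjusted p = 0.0515). Its partners in degradation did not follow, as Derl1 (-0.39 ± 0.08), Derl2 (-0.39 ± 0.10) and Edem1 (-0.29 ± 0.08) fell. Sel1l (-0.17 ± 0.09), Syvn1 (-0.04 ± 0.09), Os9 (-0.10 ± 0.07), Edem2 (0.29 ± 0.15) and Derl3 (0.58 ± 0.58) were not called.

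Dnajb11 had the largest drop among the folding genes called in premalignant sgTgfbr2 organoids, with 61.4, 56.1, 45.7 and 43.4 CPM, against 88.2, 88.1 and 75.0 CPM in sgScr. The groups did not overlap, and it fell by 0.77 ± 0.13 on the log2 scale (edgeR adjusted p = 0.00186). Sdf2l1 (-0.43 ± 0.09), Hyou1 (-0.39 ± 0.08), P4hb (-0.37 ± 0.08), Pdia3 (-0.33 ± 0.09), Dnajc3 (-0.32 ± 0.11) and Manf (-0.29 ± 0.10) fell too. With library totals Dnajc3, Manf and Edem1 were no longer called. Calr, Canx, Hsp90b1, Pdia4, Pdia5, Pdia6, Dnajb9, Dnajc10 and Creld2 lay between -0.22 and 0.06 and were not called.

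Of the 4 translocon genes, Ssr1, Sec61b and Ssr2 were called lower in premalignant sgTgfbr2 and Sec61a1 was not. Ssr1 was at 166, 152, 135 and 136 CPM in sgTgfbr2 and at 219.7, 231 and 195 CPM in sgScr, and it fell by 0.62 ± 0.11 on the log2 scale (edgeR adjusted p = 0.00178). Sec61b was at 69.9, 62.2, 50.4 and 52.1 CPM in sgTgfbr2, against 85.6, 87.5 and 74.5 CPM in sgScr, and it fell by 0.56 ± 0.13 (edgeR adjusted p = 0.00685). Neither gene's groups overlapped. Ssr2 was at 144, 135, 103 and 111 CPM in sgTgfbr2 and at 175, 177 and 143 CPM in sgScr, which touch at 143 and 144 CPM. Its log2 fold change was -0.49 ± 0.14 (edgeR adjusted p = 0.0161), and the call was lost without sgScr replicate 1, without sgScr replicate 2 or without replicate 2 of number 2, at edgeR adjusted p-values of 0.0661, 0.0754 and 0.0519 (range over its alternatives 0.000197 to 0.0754). Sec24d (-0.31 ± 0.11) and Sec61a1 (-0.19 ± 0.08) were not called.

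**Figure D4:**
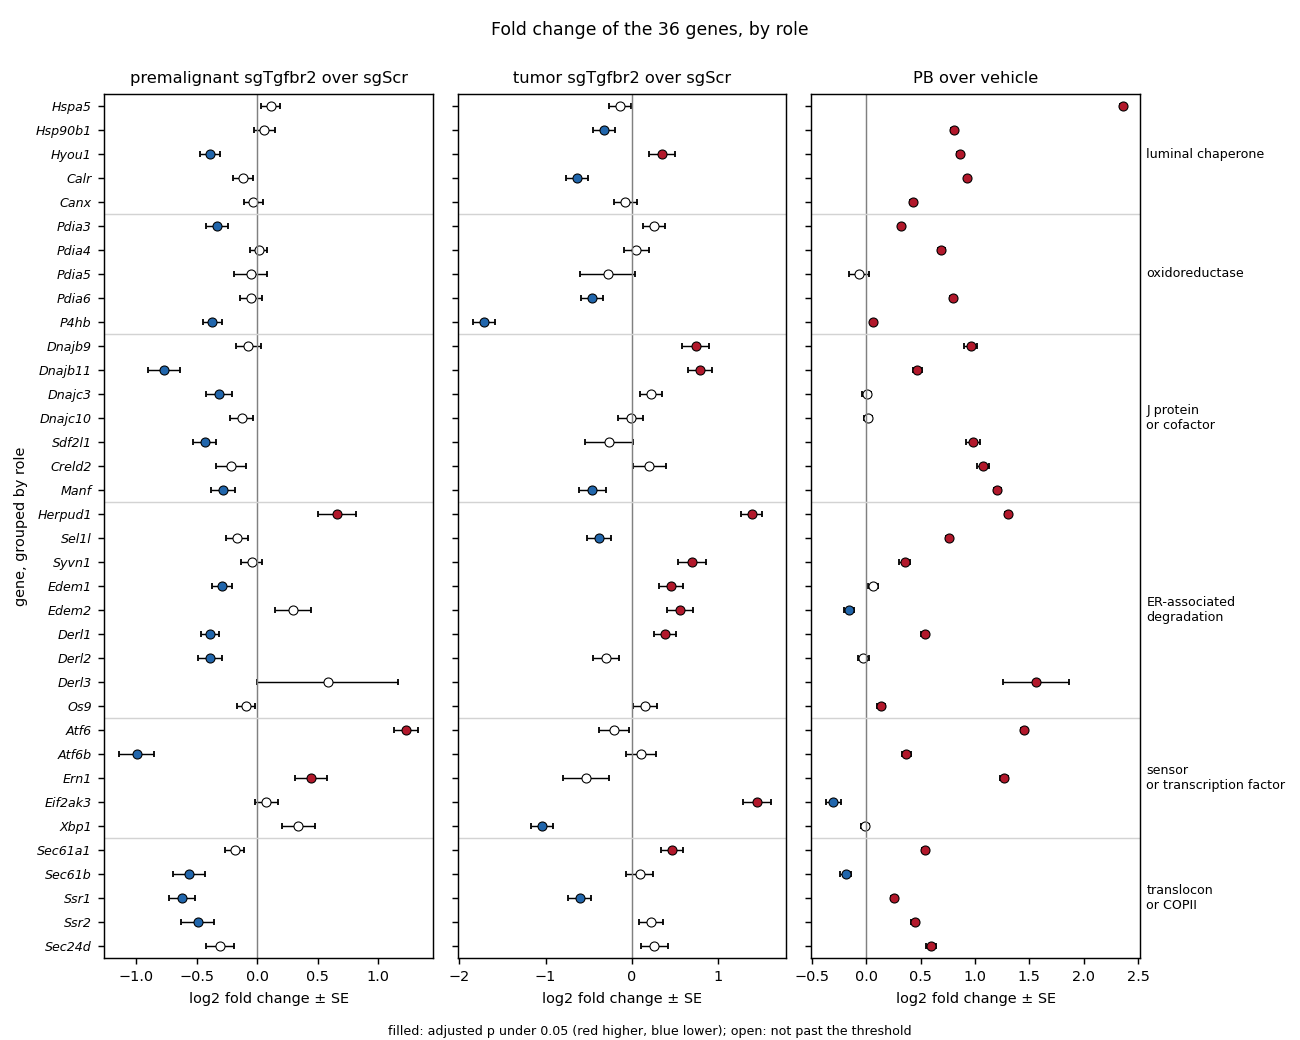
Log2 fold change with its standard error (horizontal axes) of the 36 genes, grouped by role from top to bottom, in premalignant sgTgfbr2 over sgScr, tumor sgTgfbr2 over sgScr and PB over vehicle, with filled points for an adjusted p under 0.05. Under PB 27 genes are called higher and 3 lower, against 3 higher and 14 lower in premalignant organoids and 10 higher and 8 lower in tumor organoids, where Derl3 was not tested.

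Both numbers of premalignant sgTgfbr2 were also set against the same sgScr libraries, which the comparisons therefore share. For number 2, 4 members were higher and 18 lower, against 28.9% and 29.3% of all genes. For number 1, 4 were higher and 13 lower, against 24.5% and 26.9%. Atf6 rose by 1.23 ± 0.10 on the log2 scale in number 2 and by 1.22 ± 0.10 in number 1. Atf6b fell by 1.19 ± 0.13 in number 2 and by 0.83 ± 0.12 in number 1. Herpud1 rose by 0.36 ± 0.08 in number 2 and by 0.90 ± 0.08 in number 1. Xbp1 was not called in number 2 (0.14 ± 0.10) and rose by 0.51 ± 0.10 in number 1. Ern1 rose by 0.50 ± 0.13 in number 2 and by 0.37 ± 0.13 in number 1, but it was not called in number 2 without its replicate 1, nor in number 1 without either of its libraries or without sgScr replicate 2. The lower count was 10 in number 2 without its replicate 1 and 7 in number 1 without its replicate 2.

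Set against each other, number 2 had 1 member higher (2.78%) and 5 lower (13.9%) than number 1, where 13.2% and 13.1% of all genes were called. The lower count was thus near the background and the higher count under it. Herpud1 was at 142 and 137 CPM in number 2 and at 205 and 202 CPM in number 1, a log2 difference of -0.54 ± 0.09 (edgeR adjusted p = 0.000494). It was past the threshold with each library left out. Edem2 was at 79.6 and 74.8 CPM in number 2 and at 52.5 and 59.7 CPM in number 1, a difference of 0.47 ± 0.11 (edgeR adjusted p = 0.00585). Xbp1 was at 57.1 and 62.3 CPM in number 2 and at 73.6 and 81.6 CPM in number 1 (-0.37 ± 0.11). Dnajb11 (-0.39 ± 0.12), Ssr2 (-0.37 ± 0.12) and Sec61b (-0.36 ± 0.12) were lower in number 2, with no overlap between the numbers. With 2 libraries each, the numbers also did not overlap for many other genes, as 33.5% of all genes lay higher in number 2 and 35.5% lower. Without any single one of the 4 sgTgfbr2 libraries only 1 member was lower in number 2, and without replicate 1 of number 1 or replicate 1 of number 2 none was higher. Hspa5, Atf6, Ern1 and Eif2ak3 did not differ past the threshold, with differences of -0.08 to 0.13.

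Among the further ER lists of the premalignant comparison, the glycosylation and entry genes had more members lower than higher. Over all genes 22.7% were called higher in this comparison and 23.5% lower. Of 12 oligosaccharyltransferase genes none was higher and 6 were lower (median -0.24), with Krtcap2 at -0.58 ± 0.10, the ribophorin Rpn1 at -0.47 ± 0.09 and Ddost at -0.42 ± 0.09. Of 20 genes of the translocon, signal peptidase and signal recognition particle 2 were higher and 8 lower (median -0.21), with the receptor subunit Srprb at -0.46 ± 0.08. Of 18 further degradation genes 4 were higher and 8 lower, with Edem3 at 1.01 ± 0.11 and Nploc4 at -0.53 ± 0.08. Folding enzymes had 7 higher and 7 lower of 40, and COPII genes 1 higher and 6 lower of 19. Among the 14 genes listed as outputs of the PERK branch 2 were higher and 4 lower. Atf4, the transcription factor translated when PERK is active, averaged 243 CPM in sgTgfbr2 and 415 CPM in sgScr and fell by 0.85 ± 0.12 on the log2 scale, and the pseudokinase Trib3 fell by 1.00 ± 0.15, while Atf3 rose by 1.03 ± 0.14. Of 12 regulators 3 were higher and 2 lower, with Yod1 at 1.36 ± 0.16 and Wfs1, an ER membrane protein, at 0.84 ± 0.14, and none of 3 tested secretory-cell genes was called. The squamous markers summed to 5942 to 8930 CPM in sgTgfbr2 and 10316 to 10987 CPM in sgScr, and immune markers to 35.2 to 61.1 CPM in sgTgfbr2 and 15.0 to 28.1 CPM in sgScr. Of the 9 squamous markers 7 averaged lower in sgTgfbr2, while Trp63 averaged 378 CPM in sgTgfbr2 and 262 CPM in sgScr, and Krt4 averaged 39.7 CPM in sgTgfbr2 and 35.1 CPM in sgScr. Most of the immune sum was Cd68, at 42.8 CPM in sgTgfbr2 and 18.9 CPM in sgScr on average, with Lyz2, Tyrobp and Cd3e at 0 in all of these libraries. The plasma and B cell list was nearly all Sdc1, at 1149 CPM in sgTgfbr2 and 987 CPM in sgScr on average, with its other genes at no more than 2.76 CPM. Muscle, fibroblast, endothelial, gastric and pancreatic markers summed to at most 11.04 CPM in any of these libraries. The part of these shifts in the differences was not tested.

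In tumor organoids with sgTgfbr2 the members were spread to both sides. Of 35 members tested, 10 were higher (28.6%) and 8 lower (22.9%), where 29.8% and 30.5% of all 15091 genes were called, so the member counts were near the background. Derl3, with 4 to 13 counts per library, did not pass the filter on low counts. The median log2 fold change was 0.09 over the members and -0.02 over all genes. With library totals 18 members were higher and 4 lower, and the share of called genes that were higher was 64.3%, against 49.4% after TMM scaling. The tumor sgTgfbr2 libraries held RNA of gastric gland genes and the sgScr libraries RNA of muscle genes, at the levels given above. The list of pancreatic acinar markers summed to 7954 and 9670 CPM in sgTgfbr2, against at most 1.72 CPM in sgScr. That sum was Clps (6178 CPM on average) and Pla2g1b (2611 CPM), with Cela1 at 22.7 CPM, the other genes at no more than 0.408 CPM, and the defining acinar genes Cpa1 and Pnlip at 0. Fibroblast markers summed to 2318 and 2367 CPM in sgTgfbr2 and to 2899 to 3080 CPM in sgScr, and squamous markers to 22066 and 22736 CPM in sgTgfbr2 and to 119276 to 128033 CPM in sgScr. Most of the squamous sum in sgScr was Krt4, at 3986 CPM in sgTgfbr2 and 64026 CPM in sgScr, and Krt13, at 7701 CPM in sgTgfbr2 and 56029 CPM in sgScr. Krt5, Krt14, Sox2 and Col17a1 of the same list averaged higher in sgTgfbr2, with Krt14 at 5628 CPM in sgTgfbr2 and 1097 CPM in sgScr. Plasma and B cell genes summed to 801 and 818 CPM in sgTgfbr2 and to 404 to 482 CPM in sgScr, nearly all of it Sdc1, at 786 CPM in sgTgfbr2 and 429.5 CPM in sgScr, while Jchain averaged 14.3 CPM in sgTgfbr2 and 0.280 CPM in sgScr. Immune markers summed to 791 and 819.8 CPM in sgTgfbr2 and to 947 to 960.4 CPM in sgScr, and endothelial markers to 107 and 111 CPM in sgTgfbr2 and to 137 to 155 CPM in sgScr. RNA of other tissues and the guide cannot be told apart in these libraries, and this holds for every tumor value below.

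The degradation genes were the group with the most members higher in tumor sgTgfbr2, 5 of 8 tested, where 29.8% of all genes were called higher. Herpud1 was at 238 and 245 CPM in sgTgfbr2 and at 78.9, 75.0 and 72.0 CPM in sgScr. The groups were far apart, with a log2 fold change of 1.39 ± 0.12 (edgeR adjusted p = 2.46e-09). Syvn1 was at 48.1 and 42.9 CPM in sgTgfbr2, against 26.6, 20.3 and 22.03 CPM in sgScr, and rose by 0.70 ± 0.17 (edgeR adjusted p = 0.000961). Edem2 (0.56 ± 0.15), Edem1 (0.46 ± 0.14) and Derl1 (0.38 ± 0.13) rose, Sel1l fell by 0.38 ± 0.14, and Os9 (0.16 ± 0.14) and Derl2 (-0.30 ± 0.15) were not called. Sel1l was not called with library totals, at -0.09.

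Eif2ak3 and Xbp1 showed the widest contrasts of the sensor group in the tumor comparison. Eif2ak3 was at 51.1 and 60.8 CPM in tumor sgTgfbr2 and at 14.8, 15.8 and 19.5 CPM in sgScr, and it rose by 1.46 ± 0.17 on the log2 scale (edgeR adjusted p = 1.19e-07). Xbp1 was at 156 and 155 CPM in sgTgfbr2 and at 250.4, 256 and 279 CPM in sgScr, and it fell by 1.04 ± 0.13 (edgeR adjusted p = 4.15e-07). Neither gene's groups overlapped. Atf6 was at 34.4 and 35.8 CPM in sgTgfbr2 and at 27.6, 32.6 and 39.3 CPM in sgScr (-0.20 ± 0.17, not called, and 0.08 with library totals). Ern1 was at 9.71 and 17.7 CPM in sgTgfbr2 and at 20.01, 10.1 and 18.5 CPM in sgScr, with overlapping groups (-0.53 ± 0.27, edgeR adjusted p = 0.0927). Atf6b was not called (0.11 ± 0.18). Ern1 passed without sgTgfbr2 replicate 2, without sgScr replicate 2 and with no filter, and its adjusted p ranged from 0.00272 to 0.579.

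Among the folding genes of the tumor comparison, P4hb had the largest difference, with 704 and 680.4 CPM in sgTgfbr2, against 1856, 1840.1 and 1903 CPM in sgScr. It fell by 1.72 ± 0.13 on the log2 scale (edgeR adjusted p = 1.27e-10). Calr was at 357 and 386 CPM in sgTgfbr2 and at 453, 482 and 482 CPM in sgScr (-0.64 ± 0.12, edgeR adjusted p = 0.000151). Pdia6 was at 117 and 114 CPM in sgTgfbr2 and at 131, 133 and 124 CPM in sgScr (-0.46 ± 0.13, edgeR adjusted p = 0.00432). None of the 3 overlapped between groups, and Pdia6 was not called with library totals (-0.17, edgeR adjusted p = 0.249; range over its alternatives 0.000622 to 0.249). Manf (-0.46 ± 0.16) and Hsp90b1 (-0.32 ± 0.13) fell after TMM scaling and were not called with library totals. Hspa5 was at 375 and 408 CPM in sgTgfbr2 and at 314, 371 and 368 CPM in sgScr (-0.13 ± 0.13, not called, and 0.16 with library totals).

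The J proteins Dnajb11 and Dnajb9 were on the higher side in tumor sgTgfbr2. Dnajb11 was at 109.8 and 120.4 CPM in sgTgfbr2 and at 50.3, 60.6 and 51.8 CPM in sgScr (0.80 ± 0.14, edgeR adjusted p = 3.97e-05). Dnajb9 was at 44.7 and 56.5 CPM in sgTgfbr2 and at 23.7, 25.2 and 25.3 CPM in sgScr (0.74 ± 0.16, edgeR adjusted p = 0.000334). Hyou1 rose by 0.35 ± 0.15. At the translocon, Sec61a1 rose by 0.47 ± 0.12, and Ssr1 was at 105 and 105 CPM in sgTgfbr2 and at 117, 134 and 143 CPM in sgScr (-0.60 ± 0.13, edgeR adjusted p = 0.000576). Canx, Pdia3, Pdia4, Pdia5, Dnajc3, Dnajc10, Sdf2l1, Creld2, Sec61b, Sec24d and Ssr2 lay between -0.28 and 0.26 and were not called. With library totals Pdia3, Pdia4, Dnajc3, Creld2, Sec61b, Sec24d, Ssr2 and Os9 were called higher.

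The further ER lists of the tumor comparison were led by genes of secretory cells. Over all genes 29.8% were called higher in this comparison and 30.5% lower. Of 8 tested secretory-cell genes 6 were higher and 2 lower, with a median log2 fold change of 2.203. Agr2, an isomerase of mucous cells, averaged 39.3 CPM in tumor sgTgfbr2 and 0.0772 CPM in sgScr, and Spdef, a transcription factor of mucous cells, averaged 21.02 CPM in sgTgfbr2 and 1.94 CPM in sgScr. Pdia2, an isomerase of the pancreas on the folding list, averaged 95.5 CPM in sgTgfbr2 and 0.158 CPM in sgScr. These rose beside the gastric gland sum and beside Clps and Pla2g1b, given above. Folding enzymes had 10 higher and 11 lower of 40, further degradation genes 8 higher and 3 lower of 17, the translocon list 4 and 6 of 20, oligosaccharyltransferase 1 and 3 of 12, COPII 5 and 5 of 19, sensor regulators 4 and 2 of 12, and the PERK list 2 and 3 of 14. Yod1 fell by 2.90 ± 0.24 on the log2 scale, and Nupr1, a stress-induced chromatin factor of the PERK list, rose by 3.35 ± 0.14.

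The difference between the tumor and the premalignant effect of sgTgfbr2 was tested for each gene as a contrast over 12 libraries. It was higher in tumor for 15 members and lower for 7, where 25% and 24.5% of all 15671 genes were called. With any single premalignant or tumor sgScr library left out, fewer than 7 members were called lower. Eif2ak3 differed by 1.37 ± 0.18 on the log2 scale (edgeR adjusted p = 1.59e-05) and Dnajb11 by 1.56 ± 0.20 (edgeR adjusted p = 1.03e-05). Dnajb11 was higher with sgTgfbr2 in tumor and lower with it in premalignant organoids, and so were Hyou1, Edem1 and Derl1, while P4hb, Manf (after TMM scaling alone) and Ssr1 were lower with sgTgfbr2 at both stages and Herpud1 was higher at both. Herpud1 still differed by 0.73 ± 0.20 (edgeR adjusted p = 0.00643). Atf6 (-1.44 ± 0.19), Xbp1 (-1.38 ± 0.18) and P4hb (-1.35 ± 0.14) had the lowest differences. Atf6b differed by 1.10 ± 0.24, and Hspa5 by -0.25 ± 0.15, which was not called. Ern1 differed by -0.98 ± 0.34 (edgeR adjusted p = 0.0268), a call that 4 single libraries decided, since it was lost without premalignant sgScr replicate 2 (-0.85), tumor sgScr replicate 1 (-0.81) or 3 (-0.88), or tumor sgTgfbr2 replicate 1 (-0.64). With library totals the lower count was 3, Hsp90b1, Calr, Pdia6 and Ern1 being lost, and the share of called genes that were higher was 61.9%, against 50.6% after TMM scaling. The other tissues' RNA of the tumor libraries enters this contrast as well.

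Side by side, the PB and premalignant comparisons, which share no library, called 3 members higher in both (Herpud1, Atf6 and Ern1). Of the 14 members lower in premalignant sgTgfbr2, 10 were higher under PB, namely Pdia3, P4hb, Dnajb11, Sdf2l1, Hyou1, Manf, Derl1, Atf6b, Ssr1 and Ssr2 (P4hb after TMM scaling alone), and Sec61b was lower in both. Dnajc3, Edem1 and Derl2 were lower in premalignant sgTgfbr2 and not called under PB. Over all 36 members 27 were higher under PB, and the overlap was not tested.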

How the data were processed

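RNA-seq counts per gene were read from the 3 deposited tables; the authors worked on mm10 with the aligner STAR (2.6.0a) and with DESeq2 (1.26.0), as listed per the submitters' processing notes, whereas no counter, strand setting or annotation is given in the sources used here. Whole-number counts, as deposited, were taken unchanged, and 27 symbols in each of the tumor and PB tables had been turned into dates, none of them a member. The 36 members and the gene lists were chosen with earlier results of these data known. Within each table, genes passing filterByExpr (minimum count 10) were tested with edgeR 4.0.16 (quasi-likelihood F test, two-sided, TMM scaling) in R 4.3.3, and p-values were adjusted over all genes by Benjamini-Hochberg. The stage contrast used a joint fit of premalignant and tumor libraries, and contrasts between numbers were fitted with 1 mean per title number.

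Levels are CPM of the library total, per kilobase by GENCODE M21 exon length (GRCm38). Named members were Hspa5, Xbp1 and the sensor genes in every comparison, with the 5 highest and 5 lowest called members, and from each further list up to 3 called genes by smallest p. Of the genes this rule selects, 1 is not reported here. Alternatives were RLE scaling, library totals, DESeq2 1.42.0, limma-voom (limma 3.58.1), no filter, a filter of 1 CPM, the replicate block, the mean of the numbers and each library left out. The scripts were tested on simulated data. No pair of replicates agreed within sampling noise (chi-square per degree of freedom 1.51 or more), but the excess was unequal. Pairs of PB or of vehicle libraries stayed between 1.51 and 2.03, and the standard errors under PB rest on this small scatter. Pairs in both sgScr groups, in tumor sgTgfbr2 and within each premalignant number lay between 6.42 and 21.3. Pairs joining number 1 to number 2 reached 38.1 to 57.7, so the 4 libraries pooled as premalignant sgTgfbr2 formed 2 sets of 2. The members' C-terminal retention signal was not analysed here.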

Additional observations from a re-analysis of the deposited data

Results flagged for a closer look

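The effect of sgTgfbr2 differed between tumor and premalignant organoids for 22 of the 36 members, by edgeR's test of the difference at an adjusted p under 0.05, where 25% of all genes were called higher and 24.5% lower. The values are tumor effect minus premalignant effect on the log2 scale. Among luminal chaperones the difference was 0.73 for Hyou1, -0.53 for Calr and -0.39 for Hsp90b1. Among oxidoreductases it was 0.58 for Pdia3, -0.41 for Pdia6 and -1.35 for P4hb. Among J proteins it was 1.56 for Dnajb11, 0.81 for Dnajb9 and 0.53 for Dnajc3. Among degradation genes it was 0.77 for Derl1, 0.74 for Edem1, 0.74 for Syvn1 and 0.73 for Herpud1. In the sensor group it was 1.37 for Eif2ak3, 1.10 for Atf6b, -0.98 for Ern1, -1.38 for Xbp1 and -1.44 for Atf6. At the translocon and the COPII coat it was 0.71 for Ssr2, 0.65 for Sec61b, 0.65 for Sec61a1 and 0.56 for Sec24d. The tumor libraries held RNA of gastric gland genes in sgTgfbr2 and of muscle genes in sgScr, at the sums given in the report, and tissue and guide cannot be told apart there.

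The numbers of premalignant sgTgfbr2 differed for 6 members, by the same test on number 2 minus number 1, where 13.2% of all genes were called higher and 13.1% lower. Of the members 2.78% were higher and 13.9% lower, so they did not differ more often than genes at large. The log2 difference was 0.47 for Edem2, -0.36 for Sec61b, -0.37 for Xbp1, -0.37 for Ssr2, -0.39 for Dnajb11 and -0.54 for Herpud1. Without any single one of the 4 sgTgfbr2 libraries only 1 of the 5 lower members was called. What the number stands for cannot be told from the labels.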

How the results depend on the processing

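With library totals in place of TMM, the tumor comparison called 18 members higher and 4 lower (10 and 8 after TMM), PB called 9 lower (3 after TMM), and the stage contrast called 3 lower (7 after TMM). Deviations from the group mean correlated between -0.17 and 0.28 for libraries with the same replicate number. For different numbers they correlated between -0.28 and 0.26. In groups of 2 libraries the deviations mirror each other, so these values cannot decide whether replicate numbers pair the libraries. Under the replicate block the stage contrast called 4 members lower, number 2 against number 1 called 2 members higher and 5365 genes in all (1 and 3535 without the block), and Herpud1 in the premalignant comparison had an edgeR adjusted p of 0.0515 (range over its alternatives 2.48e-06 to 0.0515). With the mean of the numbers the premalignant comparison called 5 members higher (3 without it). With 1 mismatch 14 members held an ERSE (9 without one). With each library left out in turn, number 1 against sgScr called 7 to 15 members lower and 4533 to 7786 genes, and number 2 against sgScr called 10 to 19 lower. Number 2 against number 1 then called 0 to 2 members higher, 1 to 7 lower and 1448 to 5047 genes. The causes were not tested. Of the fold changes of named members under an alternative, 1046 kept their direction and their side of the threshold, 12 passed it only under the alternative, 37 lost it and 14 changed sign, none of these past the threshold in either fit. With library totals the tumor log2 fold change was 0.16 for Hspa5 and 0.082 for Atf6 (-0.13 and -0.20 after TMM). Atf6 in number 2 against number 1 (0.0053) was at -0.016 with RLE scaling, -0.00081 with library totals, -0.016 with DESeq2, -0.024 with no filter and -0.028 with a filter of 1 CPM. With each library left out it ranged from -0.020 to 0.033, Hspa5 in the same comparison from -0.012 to 0.14 and Eif2ak3 from -0.17 to 0.0031, while Eif2ak3 in number 2 against sgScr ranged from -0.058 to 0.14 and Xbp1 under PB from -0.041 to 0.024. P4hb under PB, outside the named members, was called in opposite directions by the 2 scalings, at 0.06 after TMM and -0.08 with library totals. PB called 25 to 28 members higher with each library left out. Depth limits Derl3 most, which had 3 to 33 counts per library.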
